A study of Gallus gallus with 2 samples.

Results

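Steroid hormone synthesis was followed through 7 genes of the pathway from cholesterol to estrogen: STAR, CYP11A1, FDX1, HSD3B1, CYP17A1, CYP19A1 and HSD17B4. They were chosen by name, with earlier results of these data known, as all probe sets annotated with exactly 1 of these symbols, which gave 9 probe sets for 7 of the 13008 genes named on the array. The tissue was the germinal disc region, the small area of the yolk surface with the oocyte nucleus, from yellow follicles F5 to F7 of laying hens aged 25 weeks. The 2 groups were hens bursectomised on day 17 to 18 of incubation (Bx), which the series describes as IgY-deficient, and control hens, for which the labels name no operation. Each group was 1 pool of RNA from 9 discs of 3 birds on 1 Affymetrix Chicken Genome Array, so differences between birds were not measured, no test was possible and every difference below is that between 2 pools. Strain is not given in the sources used here.

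Steroid hormones are made from cholesterol in a series of steps. STAR moves cholesterol to the inner mitochondrial membrane, where CYP11A1 cleaves its side chain to give pregnenolone, with electrons passed on by the ferredoxin FDX1. HSD3B1 turns pregnenolone into progesterone, CYP17A1 opens the way to androgens, and CYP19A1, aromatase, turns androgens into estrogens. In the bird ovary the granulosa layer of large yellow follicles is known mainly for progesterone and the theca layers for androgens and estrogens.

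The early steps gave clear signals in both pools and the aromatase step did not. A probe set counted as above background when its signal, in the deposited MAS5 units, exceeded the 95th percentile of the array's 746 non-chicken probe sets. That floor was 36.4 on the Bx array and 42.6 on the control array. Of the 7 genes, 6 were above the floor in both pools, beside 78.2% of all named genes. STAR, CYP11A1, FDX1, HSD3B1 and HSD17B4 had signals at least 18.1 times the floor on the Bx array and at least 20.3 times on the control array. CYP17A1 was 3.02 times the floor on the Bx array and 1.38 times on the control array, and CYP19A1 was above it on the Bx array alone, by 1.03 times. Signals of different probe sets are not on a common scale. Brightness and distance from the floor thus do not rank the transcript levels of different genes.

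**Figure D1:**
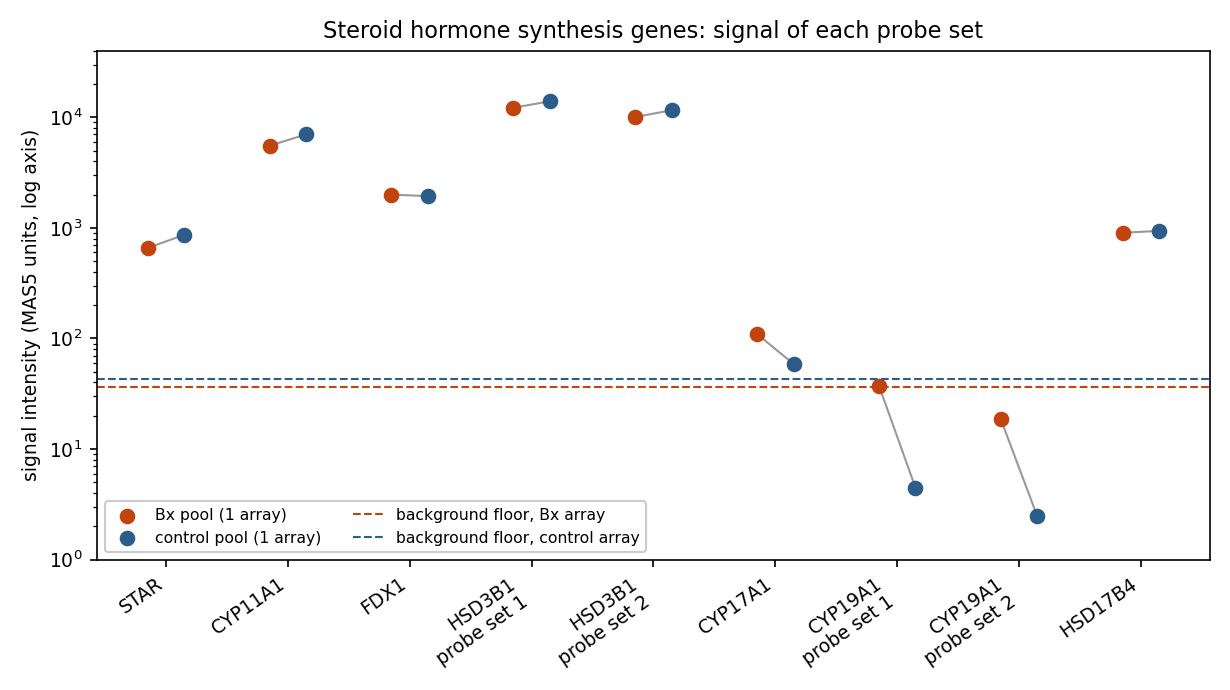
Signal intensity in MAS5 units on a log axis for each of the 9 probe sets, with the Bx pool on the left and the control pool on the right of each pair (1 array each) and dashed lines at each array's background floor. STAR to HSD3B1 and HSD17B4 lie far above the floor in both pools, CYP17A1 lies close to it, and CYP19A1 lies at or under it.

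Cholesterol import was represented by STAR, the protein that limits the rate of acute steroid production. Its 1 probe set had a signal of 658 in the Bx pool and 865 in the control pool, a log2 ratio of -0.39, or 1.31-fold lower in the Bx pool. The size of this difference was read against genes of like brightness, since dim genes scatter more. When the 10168 genes above the floor on both arrays were divided into 4 groups of 2542 by brightness, the SD of the log2 ratio was 0.49, 0.31, 0.21 and 0.15 from the dimmest to the brightest. STAR lay in the third group, where 5.55% of genes had a ratio at least as far from 0. These shares describe the 2 arrays, and the SDs include any real difference.

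Side-chain cleavage had both of its genes well above the floor, with different ratios. CYP11A1, the enzyme that commits cholesterol to steroids, had a signal of 5538 in the Bx pool and 7006 in the control pool, 1.27-fold lower in the Bx pool (log2 ratio -0.34). It lay in the brightest group, where 2.75% of genes were at least as far from 0. Its 1 probe set is of the type, marked _s_at, that can match several transcripts. FDX1, its electron donor, had 2000.5 in the Bx pool and 1935 in the control pool. Its log2 ratio of 0.05 was -0.01 with the arrays centred on their medians, and 80.5% of genes of like brightness were at least as far from 0. CYP11A1 thus had less signal in the Bx pool, while FDX1 had about the same signal in both pools.

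The progestin step was read by 2 probe sets of HSD3B1, the dehydrogenase and isomerase that gives progesterone from pregnenolone. One had a signal of 12204 in the Bx pool and 13969.8 in the control pool. The other had 10079.6 in the Bx pool and 11588 in the control pool. The log2 ratios were -0.19 and -0.20, with a mean of -0.20 and an SD of 0.0043 between the probe sets. Both placed the Bx pool lower by about the same amount, 1.14-fold and 1.15-fold. The 2 probe sets may share sequence, so their closeness is no measure of the error of the ratio, and it says nothing of the spread between birds. Of genes of like brightness, 15.9% were at least as far from 0, so the HSD3B1 difference was well within the range seen there.

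The androgen step had the largest ratio among the 6 genes above the floor in both pools, at signals near the floor. CYP17A1, which adds the 17-hydroxyl group and cleaves the side chain to give androgens, had a signal of 109.7 in the Bx pool and 58.7 in the control pool. This was 1.87-fold higher in the Bx pool (log2 ratio 0.90) on 1 probe set, also of the _s_at type. In the dimmest group, where it lay, 6.53% of genes were at least as far from 0. With the floor raised to the 99th percentile of non-chicken probe sets (73.1 on the Bx array and 70.7 on the control array), the control value was under the floor. The ratio then has only a bound, and with a pseudocount of 16 it was 0.75.

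At the estrogen steps the 2 genes gave unlike results. CYP19A1, aromatase, had a signal of 37.5 in the Bx pool and 4.46 in the control pool on one probe set. On the other it had 18.6 in the Bx pool and 2.46 in the control pool. Both probe sets had the higher value in the Bx pool, but only 1 of these 4 values passed its floor. The passing value of 37.5 is also below the control array's floor of 42.6, so no fold is given. Aromatase was thus not well above background in either pool, which does not show that the transcript is absent. HSD17B4, a peroxisomal enzyme that oxidises estradiol to estrone and also takes part in fatty acid oxidation, had 904 in the Bx pool and 939 in the control pool. Its log2 ratio was -0.06, and 77.5% of genes of like brightness were at least as far from 0.

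**Figure D2:**
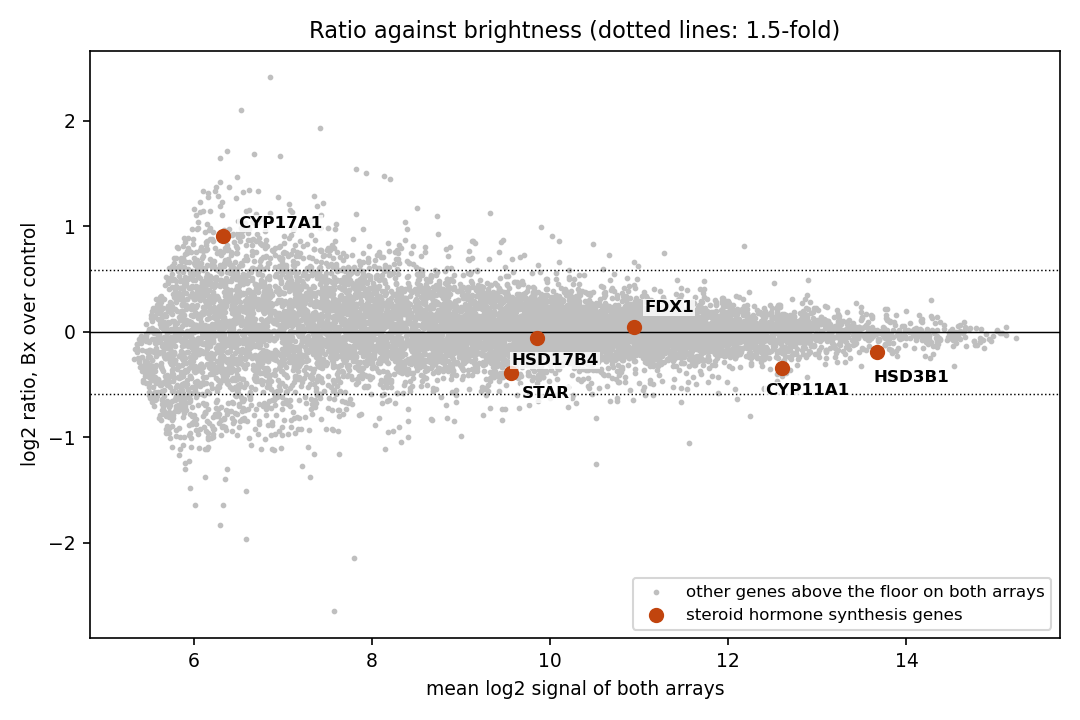
Log2 ratio of the Bx over the control pool against the mean log2 signal of both arrays, for the 6 steroid hormone synthesis genes above the floor on both arrays (coloured) and all other such genes (grey), with dotted lines at 1.5-fold. CYP17A1 at 0.90 lies past the line in the dim part where the grey points scatter widely, and the other 5 lie between -0.39 and 0.05.

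As a list, 4 of the 6 genes had less signal in the Bx pool, where 47.6% of all 10168 genes did. The median log2 ratio was -0.13, beside 0.01 over all genes. At 1.5-fold, 1 gene was higher in the Bx pool, CYP17A1, and 0 were lower, beside 4.11% of all genes higher and 3.63% lower. At a smaller threshold, a log2 ratio of 0.32 either way, 1 gene was higher and 2 were lower, STAR and CYP11A1, beside 12.3% and 9.94% of all genes. At 2-fold no gene of the list passed, beside 1.06% of all genes. Each of STAR, CYP11A1 and HSD3B1 had the lower value in the Bx pool under all alternative settings that measured it. Their log2 ratios were -0.45 to -0.39, -0.39 to -0.32 and -0.25 to -0.17, in that order. STAR and CYP11A1 have 1 probe set each, so other floors and probe set choices could only repeat the ratio or drop the gene. All settings use the same 2 arrays.

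Markers of the cells that carry the pathway were read beside these values. All 12 granulosa markers were above the floor in both pools, and 10 of 12 had less signal in the Bx pool, beside 47.6% of all genes, with a median log2 ratio of -0.13. Their summed signal was 95883 in the Bx pool and 103415 in the control pool, and most of it was ZP3, FOXL2 and INHA. ZP3 had 35348 in the Bx pool and 36000.9 in the control pool (log2 ratio -0.03). INHA had 14407 in the Bx pool and 14650.5 in the control pool (log2 ratio -0.02). The lowest log2 ratios of the list were those of INHBB (-0.58), INHBA (-0.45) and AMH (-0.34) on their brightest probe sets. For AMH, the 2 probe sets above the floor in both pools went both ways, at -0.34 and 0.10. The 2 markers with more signal in the Bx pool were KITLG (log2 ratio 0.41) and GATA4 (0.09). FSHR, the receptor for follicle-stimulating hormone, had 2336 in the Bx pool and 2820 in the control pool on its brightest probe set, and FOXL2, a transcription factor of granulosa cells, had 19164 in the Bx pool and 20540.2 in the control pool. The synthesis genes and the granulosa markers thus had medians of the same sign, which became -0.03 for the granulosa list without _x_at and _s_at probe sets, where 7 of 11 markers had less signal in the Bx pool. The part of granulosa content in the STAR, CYP11A1 and HSD3B1 values was not tested. In pooled tissue, fewer cells of a type and less RNA per cell cannot be told apart.

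Theca and stroma markers were read beside CYP17A1 and CYP19A1. Of 14 listed, 13 were on the array and 7 were above the floor in both pools, beside 78.2% of all named genes. The summed signal of the 13 was 2371 in the Bx pool and 2472 in the control pool. COL1A2, with a log2 ratio of 0.03, made up 1364 and 1340 of it. The median log2 ratio of the 7 was -0.18. PDGFRA, a growth factor receptor of stromal cells, had 44.6 in the Bx pool and 86.6 in the control pool, while PTCH1, the hedgehog receptor, had 289 in the Bx pool and 198 in the control pool. GLI1, LUM and COL1A1 were under the floor in both pools. ACTA2 and DCN were above it on the control array alone. ACTA2 had 7.02 in the Bx pool and 72.9 in the control pool, and DCN had 3.79 and 57.8. DES was above it on the Bx array alone, with 42.1 in the Bx pool and 9.85 in the control pool. The passing values of these genes were near the floor. Of the 7 genes above the floor in both pools, 3 had more signal in the Bx pool and 4 less. The part of theca content in the CYP17A1 value was not tested.

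The marker list for the oocyte, the tissue named in the labels, had 10 of 11 genes on the array above the floor in both pools. KIT was the exception. Whether each listed gene, ZP1 among them, was made by the oocyte was not tested. Of these 10 genes 9 had more signal in the Bx pool, beside 52.4% of all genes, with a median log2 ratio of 0.33 that was 0.14 with the floor at the chicken median. DDX4, ZP1, ZP4 and GTSF1, 4 of the 10, were at least 1.5-fold higher, beside 4.11% of all genes. DDX4, ZP1 and ZP4 lay in the dimmest group, where 11.5% of genes were that much higher. The control signals of DDX4 and ZP1 were only 1.02 and 1.05 times the floor. With a pseudocount of 16, or with the floor at the 99th percentile or the chicken median, 2 genes passed, ZP4 and GTSF1. The summed signal of the 11 genes was 6750.0 in the Bx pool and 6057 in the control pool. DAZL, a germ cell RNA-binding protein, had 3027 in the Bx pool and 2743 in the control pool. Endothelial markers were above the floor in both pools for 4 of 6 genes and leukocyte markers for 2 of 5, with median log2 ratios of 0.44 and -0.23. With no floor these medians were 0.13 and 0.06, and with the floor at the chicken median 0.0069 and -0.52. The summed signals of all 6 endothelial and all 5 leukocyte genes were 579.5 and 2412 in the Bx pool, against 529.5 and 3317 in the control pool. Most of the leukocyte sum was CD74, the MHC class II invariant chain, with 2212 in the Bx pool and 3182 in the control pool. CD79B was above the floor on the control array alone, with 35.1 in the Bx pool and 55.3 in the control pool, both near the floor. CSF1R had a log2 ratio of 0.06, and PTPRC was under the floor in both pools. CD3E, a T cell receptor subunit, had the higher value in the Bx pool, with 72.0 against 6.25 in the control pool. This was at least 1.69-fold higher against the control array's floor. Its Bx value is under that array's 99th percentile floor of 73.1, so the bound rests on a value near the floor. Only 1 of 6 listed erythrocyte genes was on the array under its listed symbol, HBAD, with 144 in the Bx pool and 133 in the control pool.

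**Figure D3:**
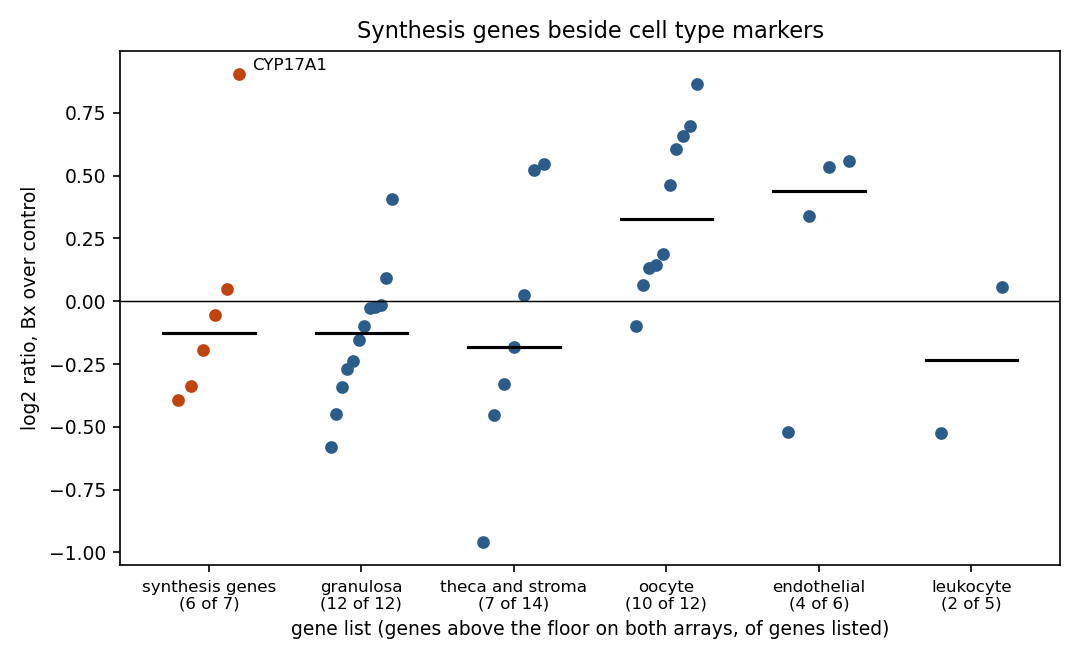
Log2 ratio of the Bx over the control pool for each gene above the floor on both arrays (points) and the median of each list (black bars), with the number of such genes and of genes listed under each name. The synthesis genes other than CYP17A1 span -0.39 to 0.05, the granulosa markers have a median of -0.13 and the oocyte markers a median of 0.33.

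Other genes of steroid metabolism were counted from a list of 48 genes that supply cholesterol or electrons to the pathway or convert its products. Of these, 33 were on the array and 27 were above the floor in both pools. Of the 27, 17 had more signal in the Bx pool and 10 less, beside 52.4% of all genes with more, and median centring turned this into 14 and 13. The median log2 ratio was 0.06. At 1.5-fold 1 gene was higher and 2 were lower, beside 4.11% and 3.63% of all genes.

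Genes that supply cholesterol were measured in full. All 10 on the array were above the floor in both pools and 9 differed by less than 1.5-fold, with a median log2 ratio of 0.04. NPC2 and NPC1 together export cholesterol from lysosomes. NPC2 had 33714 in the Bx pool and 33999.7 in the control pool, and NPC1 had 19094 in the Bx pool and 17065 in the control pool. SCP2, a sterol carrier, had 8831 in the Bx pool and 8033 in the control pool on its brightest probe set. Its 3 probe sets above the floor in both pools went both ways, with log2 ratios from -0.07 to 0.14 and a mean of 0.02. SOAT1, which stores cholesterol as esters, was at a log2 ratio of 0.02 on the brightest probe set, but at -0.41 on the brightest one not of the _x_at or _s_at type. The exception in size was STARD5, a lipid transfer protein related to STAR, with 77.2 in the Bx pool and 48.9 in the control pool (log2 ratio 0.66). It lay in the dimmest group, where 17.5% of genes were at least as far from 0, and a pseudocount of 16 brought it to 0.52, under 1.5-fold.

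The electron supply was measured by 3 genes, all above the floor in both pools. FDXR, which feeds FDX1, had 428 in the Bx pool and 404 in the control pool on the brighter probe set, and the log2 ratio averaged 0.31 ± 0.33 (SD, 2 probe sets). POR, which feeds the microsomal enzymes CYP17A1 and CYP19A1, had 1921 in the Bx pool and 1829 in the control pool. Its probe sets went both ways, and the log2 ratio averaged -0.22 ± 0.42 (SD, 2 probe sets). CYB5A, cytochrome b5, which aids the androgen-forming reaction of CYP17A1, had 4728 in the Bx pool and 4935 in the control pool. None of the 3 was past 1.5-fold on its brightest probe set. FDXR and POR were named after their values were seen.

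Among other hydroxysteroid dehydrogenases, 6 of 7 on the array were above the floor in both pools. HSD17B1, which in mammals reduces estrone to estradiol, had 2340 in the Bx pool and 2359 in the control pool, a log2 ratio of -0.01 that was above 0 after quantile normalization. It was named after its value was seen. Its signal was well above the floor although that of aromatase was not. HSD17B3, which in mammals forms testosterone, had 178 in the Bx pool and 231 in the control pool, and the log2 ratio averaged -0.16 ± 0.31 (SD) over its 2 probe sets. HSD17B11, a dehydrogenase of lipid droplets in mammals, had 61.5 in the Bx pool and 101 in the control pool (log2 ratio -0.71), again in the dimmest group, where 14.4% of genes were at least as far from 0. HSD17B2, which oxidises estradiol in mammals, was above the floor on the Bx array alone, with 46.5 in the Bx pool and 6.73 in the control pool, at least 1.09-fold higher against the control array's floor. Its Bx value is under that array's 99th percentile floor of 73.1, so the bound rests on a value near the floor.

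Of the steroid reductases, SRD5A3 had the ratio farthest from 0 among those above the floor in both pools, in the brightest group of genes, where ratios scatter least. It belongs to the steroid 5-alpha-reductase family, and in mammals it is known for reducing polyprenol to dolichol for protein glycosylation. It had 3511 in the Bx pool and 5451 in the control pool on 1 probe set, a log2 ratio of -0.63, and 0.236% of genes in the brightest group were at least as far from 0. Its ratio lay between -0.69 and -0.61 over all 10 settings, past 1.5-fold in each. With 1 probe set, only median centring, quantile normalization, loess and the pseudocount could move it. SRD5A2, a steroid 5-alpha-reductase of androgens in mammals, was above the floor on the control array alone, with 2.43 in the Bx pool and 50.7 in the control pool, a difference of at least 1.39-fold. Its control value is under that array's 99th percentile floor of 70.7, so the bound rests on a value near the floor. AKR1B1, an aldose reductase, had 7443 in the Bx pool and 7218 in the control pool.

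Of 6 listed genes of the corticosteroid steps, 2 were on the array under their listed symbols, and each passed the floor in 1 pool alone. Of all 13008 named genes, 711 passed it on the Bx array alone and 428 on the control array alone. CYP21A1, the 21-hydroxylase, had 56.4 in the Bx pool and 13.3 in the control pool, a difference of at least 1.32-fold. HSD11B1L had 8.76 in the Bx pool and 47.2 in the control pool, a difference of at least 1.30-fold. Both bounds rest on values near the floor. Among genes of hydroxylation and conjugation, 4 of 6 were above the floor in both pools and all 4 had more signal in the Bx pool, beside 52.4% of all genes, with a median log2 ratio of 0.29. UGT1A1, a glucuronosyltransferase, was above the floor on the control array alone, with 31.4 in the Bx pool and 68.7 in the control pool, a difference of at least 1.89-fold. Its control value is under that array's 99th percentile floor of 70.7, so this bound also rests on a value near the floor. With no floor the list had 4 genes higher and 2 lower, and a median of 0.17. SULT1B1, a sulfotransferase, had 457 in the Bx pool and 307 in the control pool (log2 ratio 0.57). SULT1E1, the estrogen sulfotransferase of mammals, had 495 in the Bx pool and 386 in the control pool (log2 ratio 0.36), and neither was past 1.5-fold.

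**Figure D4:**
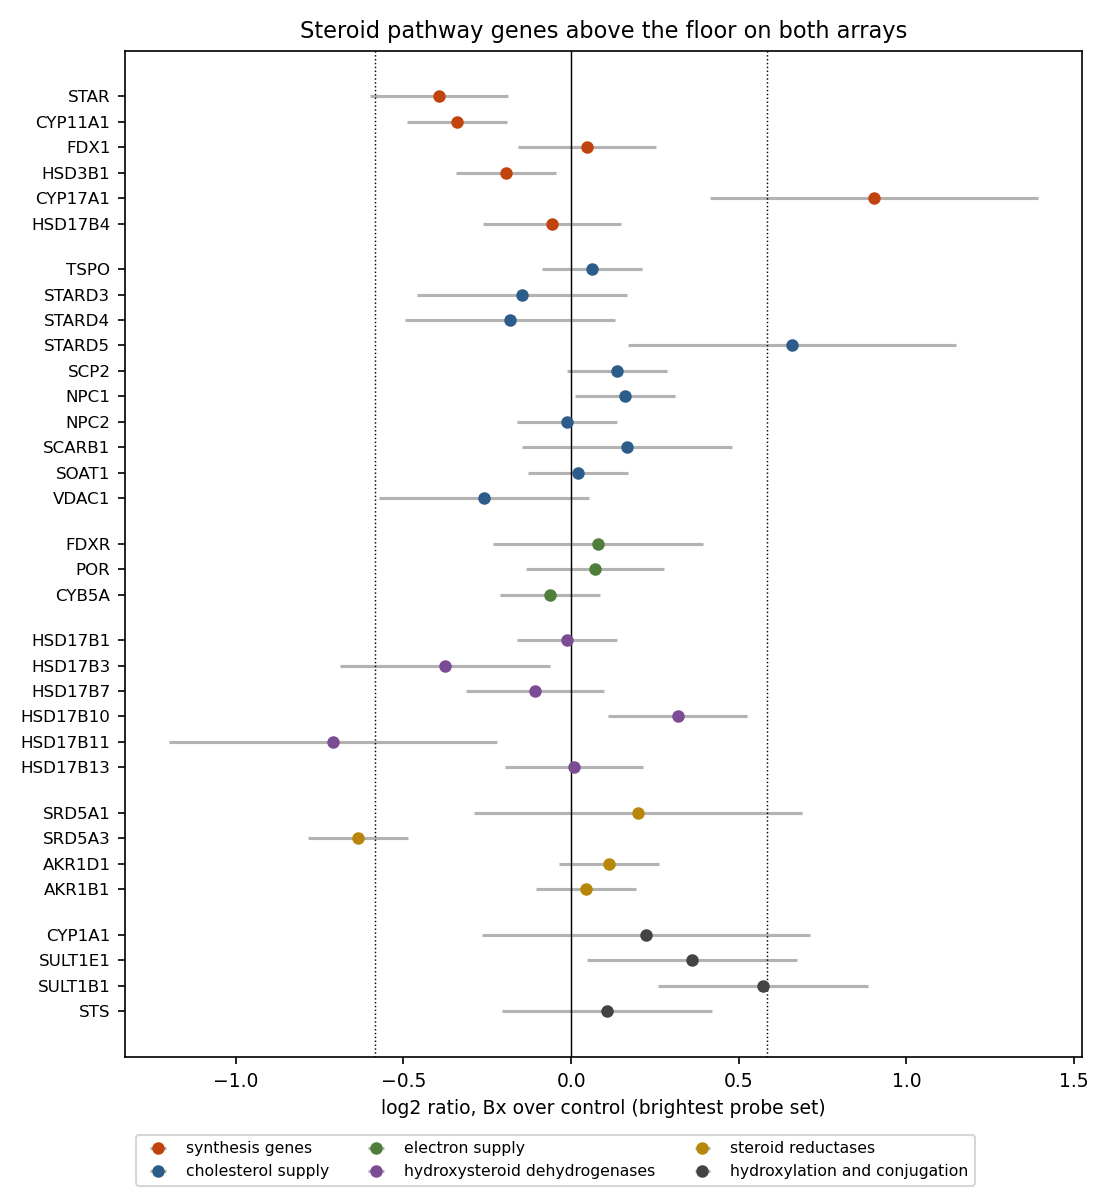
Log2 ratio of the Bx over the control pool on the brightest probe set for the 6 synthesis genes and the 27 other steroid pathway genes above the floor on both arrays, coloured by role, with dotted lines at 1.5-fold. Grey bars are the SD of the log2 ratio over all genes of like brightness (0.15 to 0.49), not an error between birds. SRD5A3 at -0.63 has the narrow bar of a bright gene, while CYP17A1, STARD5 and HSD17B11 have wide ones.

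Regulators of the pathway were counted from a list of 21 genes, of which 19 were on the array and 16 were above the floor in both pools. At 1.5-fold 1 was higher in the Bx pool and 0 were lower, beside 4.11% and 3.63% of all genes. NR5A1, the nuclear receptor that in mammals activates STAR and the steroid P450 genes, had 8033 in the Bx pool and 7568 in the control pool. NR0B1, its known repressor in mammals, had 8287 in the Bx pool and 7333 in the control pool. The log2 ratios were 0.09 for NR5A1 and 0.18 for NR0B1. Of genes of like brightness, 49.3% and 19.7% were at least as far from 0, so both differences were well within the range seen there. Both ratios were above 0 under all 10 settings, but each gene has 1 probe set, which other floors and probe set choices leave unchanged. The ratios of STAR, CYP11A1 and HSD3B1 were below 0. NR5A2, the close relative of NR5A1, had 4496 in the Bx pool and 6526 in the control pool on its brightest probe set. The log2 ratio there was -0.54, short of 1.5-fold, and 0.590% of genes of like brightness were at least as far from 0. Over its 2 probe sets the log2 ratio averaged -0.66 ± 0.18 (SD), which is past 1.5-fold. GATA6, a zinc finger factor of gonadal cells, had 7302 in the Bx pool and 7201 in the control pool.

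CEBPB, a transcription factor induced in mammalian granulosa cells by luteinising hormone, had 941 in the Bx pool and 521 in the control pool (log2 ratio 0.85). In its brightness group 0.236% of genes were at least as far from 0. CREB1, a factor activated by cyclic AMP, had 308 in the Bx pool and 404 in the control pool on its brightest probe set. Its 4 probe sets went both ways, and the log2 ratio averaged -0.25 ± 0.54 (SD). LHCGR, the receptor for luteinising hormone, named after its value was seen, had 4131 in the Bx pool and 4477 in the control pool.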

How the data were processed

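RNA (100 ng) of each pool was labelled by 3' in vitro transcription, per the labels' protocols. The deposited values are linear signal intensities, 1 for each probe set on each array, which the authors computed by MAS5 (per the submitters' processing notes). Its scaling target is not given in the sources used here. The number of arrays limits the precision.

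Signals were taken to log2 without a pseudocount. The floor was the 95th percentile of 746 non-chicken probe sets, and 96 array controls were left out. Of 37693 chicken probe sets, 27166 had 1 gene symbol in GEO's platform annotation, 177 several and 10350 none. All 7 genes had the same symbol in RefSeq (GRCg7b). Coordinates and sequences were not used here. The brightest probe set stands for a gene, and ratios are Bx over control. Every gene of the 7 was named. Of the other pathway genes, up to 6 with the highest signal and up to 6 with the largest absolute ratio were named, of the regulators up to 4 and 4. Genes at the floor and markers were added after their values were seen. Members and lists were chosen with earlier results of these data known. Alternatives were median centring, quantile normalization, loess (fraction 0.3), a pseudocount of 16, the mean over probe sets, dropping _x_at and _s_at probe sets, other floors, and a smaller and a larger fold threshold. The script was tested on simulated data. Python 3.11.15, numpy 2.4.6, pandas 2.3.3 and statsmodels 0.14.6 were used.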

Additional observations from a re-analysis of the deposited data

How the results depend on the processing

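The median log2 ratio of the synthesis genes was -0.13 and lay between -0.19 and -0.06 over the alternatives, at -0.18 after median centring. The number of the 7 genes above the floor in both pools was 6, against 5 with the floor at the 99th percentile or at the chicken median (86.6 on the Bx array and 85.0 on the control array), where CYP17A1 was lost. It was 4 without _x_at and _s_at probe sets, where CYP11A1 and CYP17A1 have no other probe set. The number of genes past 1.5-fold either way was 787, against 2266 at a log2 ratio of 0.32 and 108 at 2-fold. Higher values in the Bx pool made up 53.1% of these genes, but 42.7% after median centring, which moved the median of all genes by -0.05. With the mean over probe sets the ratio of POR was -0.22 and that of SOAT1 -0.20, against 0.07 and 0.02 on the brightest probe sets; the cause was not tested. NR5A2 was past 1.5-fold in 2 of 10 settings. No paired analysis was possible because each group had 1 array. Values near the floor, those of CYP17A1 and CYP19A1, are limited by signal over background.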

Other observations

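Receptors for the products of the pathway were mostly dim. ESR2, estrogen receptor beta, had 313 in the Bx pool and 259 in the control pool (log2 ratio 0.27), and 33.1% of genes of like brightness were at least as far from 0. ESR1, estrogen receptor alpha, had 122 in the Bx pool and 124 in the control pool, a log2 ratio of -0.01. PGR, the progesterone receptor, had 10.3 in the Bx pool and 43.2 in the control pool. Only the control value was above its floor, by 1.01 times. ESR1 and PGR were named after their values were seen.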
